A study of Mus musculus with 68 samples.

Results

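The genes described here are 44 genes of mitosis and DNA replication, followed through 68 skin papillomas of 37 mice. The list was drawn up by gene function and holds Mki67, Top2a, the mitotic cyclins and kinases, the spindle checkpoint, kinesins and centromere proteins, the minichromosome maintenance (Mcm) helicase and the enzymes that supply nucleotides. Of the 44 symbols 43 had a probeset of their own in the array annotation, and the cyclin gene Ccnb1 had none. Each gene was represented by its probeset of highest mean over the 68 arrays. To enter the tests a probeset had to exceed the median of its array in 11 or more arrays, which 42 of the genes did, out of 12605 genes tested in all (18193 have a probeset with a single symbol). The gene left out was Tyms (thymidylate synthase), whose probesets lay below the median in all 68 arrays. Of the 42, 40 lay above the median in all 68 arrays, and the exceptions were the kinesin gene Kif11 (67 arrays) and the replication licensing gene Cdc6 (65 arrays).

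The mice were FVBBX, made by crossing SPRET/Ei with FVB/N and crossing the offspring back to FVB/N. They were 8 to 12 weeks old when the dorsal skin was treated once with DMBA, which mutates epidermal cells, and then with the tumor promoter TPA 2 times a week for 20 weeks. No papilloma came from an untreated mouse, so all groups share both agents. At 20 weeks the 12 susceptible mice (22 papillomas on arrays) carried 9 to 35 papillomas, the 6 resistant mice (11 arrays) 0 or 1, and the 19 intermediate mice (35 arrays) 2 to 7. By label 7 of the susceptible, 4 of the resistant and 10 of the intermediate mice were female. Agouti coats were worn by 4, 5 and 8 of them in that order, and the other mice were white. Coat was thus uneven between the susceptible and resistant classes. From 31 mice 2 papillomas and from the other 6 mice 1 papilloma were hybridized, each to its own Affymetrix array. Mice are numbered here in the order of their arrays, and n is the number of mice. TPA itself drives the epidermis to divide, and the time between the last treatment and removal of a tumor was not used here.

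A dividing cell first copies its DNA and then separates the copies. The Mcm proteins form the helicase that opens DNA at origins, Cdc6 and Cdt1 load it there, and ribonucleotide reductase (Rrm1, Rrm2) makes the building blocks. The transcripts of this machinery rise as cells enter S phase under E2F factors. Genes of mitosis rise later, in G2 and M phase, through a promoter element called the cell cycle genes homology region (CHR), often beside CCAAT boxes, and through Foxm1. In normal epidermis division takes place mainly in the basal layer. The array measured RNA from whole tumors, so fewer dividing cells and less RNA per dividing cell cannot be told apart.

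The promoters of members that the results below turn on are printed first, since the same elements recur in them. A RefSeq table for GRCm38.p6 held a promoter for 37 of the 44 members and 32851 promoters in all. The 250 bases before the start of transcription were searched on both strands for the CHR (spelled TTTGAA, with the variant TTCGAA also counted), the CCAAT box (CCAAT) and an E2F type motif (TTTCCCGC or TTTGGCGC or TTTGCCGC or TTTCGCGC). None of these motifs contains another. The CCAAT box was present in 29 of 37 members (78.4%), against 33.8% of all promoters. The CHR was present in 11 of 26 mitosis genes (42.3%) and 2 of 11 replication genes (18.2%), against 17.1% of all promoters. The E2F type motif was present in 1 of 26 mitosis genes (3.85%) and 4 of 11 replication genes (36.4%), against 1.86% of all promoters. A member with more than 1 start counted if any start held the motif, while the share over all promoters counts each promoter. Mcm7 held its CHR and E2F type matches in 1 of its 2 starts. A match is a description of letters and does not show that a factor binds. The last 200 bases before the start are given 5′ to 3′ on the strand of the gene, with matches in capitals (a match on the other strand is shown as its reverse complement, so that a CCAAT box can appear as ATTGG).
Mki67 chr7:135716380-135716579 minus strand: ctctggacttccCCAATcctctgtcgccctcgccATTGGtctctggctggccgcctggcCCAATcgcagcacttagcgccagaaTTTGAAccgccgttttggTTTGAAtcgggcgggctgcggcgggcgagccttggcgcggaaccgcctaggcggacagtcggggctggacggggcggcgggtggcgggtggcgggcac
Top2a chr11:99024190-99024389 minus strand: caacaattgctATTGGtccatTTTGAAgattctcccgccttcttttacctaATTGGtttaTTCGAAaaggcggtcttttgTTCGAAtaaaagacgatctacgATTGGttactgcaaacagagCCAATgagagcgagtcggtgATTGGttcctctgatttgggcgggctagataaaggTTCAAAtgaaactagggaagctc
Cdk1 chr10:69352913-69353112 minus strand: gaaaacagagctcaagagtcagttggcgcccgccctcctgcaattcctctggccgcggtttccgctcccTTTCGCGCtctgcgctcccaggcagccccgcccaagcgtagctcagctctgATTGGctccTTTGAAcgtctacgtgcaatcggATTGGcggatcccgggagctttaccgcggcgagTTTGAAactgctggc
Plk1 chr7:122159235-122159434 plus strand: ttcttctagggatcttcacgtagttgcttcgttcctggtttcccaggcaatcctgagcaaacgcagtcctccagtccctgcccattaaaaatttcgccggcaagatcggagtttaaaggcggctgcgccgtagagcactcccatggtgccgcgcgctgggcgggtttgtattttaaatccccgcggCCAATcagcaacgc
Ccnb2 chr9:70421555-70421754 minus strand: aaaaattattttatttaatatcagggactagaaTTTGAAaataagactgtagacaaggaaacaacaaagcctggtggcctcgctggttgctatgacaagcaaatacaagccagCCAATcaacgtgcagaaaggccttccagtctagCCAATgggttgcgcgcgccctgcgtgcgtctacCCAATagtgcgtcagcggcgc
Mcm2 chr6:88898781-88898980 minus strand: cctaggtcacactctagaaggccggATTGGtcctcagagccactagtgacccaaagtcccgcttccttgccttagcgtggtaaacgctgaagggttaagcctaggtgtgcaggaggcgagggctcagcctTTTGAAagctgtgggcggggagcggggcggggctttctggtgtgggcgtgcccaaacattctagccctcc
Cdc6 chr11:98907951-98908150 plus strand: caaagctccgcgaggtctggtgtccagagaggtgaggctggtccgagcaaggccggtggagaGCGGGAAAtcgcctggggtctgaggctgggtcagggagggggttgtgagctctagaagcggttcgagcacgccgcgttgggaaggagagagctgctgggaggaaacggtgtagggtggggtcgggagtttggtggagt
Rrm2 chr12:24708054-24708253 plus strand: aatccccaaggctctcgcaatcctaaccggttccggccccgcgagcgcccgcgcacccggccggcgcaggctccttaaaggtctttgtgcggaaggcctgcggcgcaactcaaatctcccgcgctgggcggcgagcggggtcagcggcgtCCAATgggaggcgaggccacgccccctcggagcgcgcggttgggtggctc
Pcna chr2:132253181-132253380 minus strand: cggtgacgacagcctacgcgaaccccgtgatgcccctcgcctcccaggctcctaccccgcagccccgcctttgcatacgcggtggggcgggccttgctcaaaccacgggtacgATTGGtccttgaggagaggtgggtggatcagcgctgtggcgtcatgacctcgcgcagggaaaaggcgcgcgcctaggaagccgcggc
Top2a (DNA topoisomerase II alpha, which untangles chromosomes) held 4 CHR and 5 CCAAT matches in this stretch, and Mki67 (the proliferation antigen that coats mitotic chromosomes) held 2 and 3. Cdk1, the kinase that starts mitosis, held matches to all 3 motifs, among them an E2F type match. Cdc6 held an E2F type match alone.

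The basal keratinocyte markers (6 of 6 above the median in all arrays) were present throughout, and the mean of these 6 ranged from 10.76 to 12.20 on the log2 scale over arrays. Array medians lay between 5.18 and 5.28. Some arrays stood apart. Papilloma 1 of mouse 32 had a mean of 5.56 for 7 markers of differentiated keratinocytes, against a median of 11.82 over arrays. Its ratio of the 3′ to the 5′ Actb probeset (a sign of RNA quality, log2) was -0.24, against a median of 0.676. That ratio was -0.27 in papilloma 1 and 1.71 in papilloma 2 of mouse 37. The genes that mark sex went against the label in 8 arrays of 6 mice. The fits were repeated without these mice, and the counts of members called stayed within 1.5 times those reported.

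From the lowest to the highest papilloma the 42 genes varied by 0.97 (Foxm1) to 3.35 (Kif20a) log2 units. Mki67 averaged 10.13 ± 0.36 (SD, n = 37 mice), with a lowest mouse at 9.07, a median of 10.12 and a highest at 10.89. Top2a averaged 9.86 ± 0.36 and ran from 8.37 to 10.43. Plk1, the kinase that carries the cell through the stages of mitosis, varied most between mice among the mitotic kinases, with 7.95 ± 0.495 (SD) and a range of 5.71 to 8.57. Among replication genes Cdc6 had the largest SD, at 6.54 ± 0.50 with a range of 4.99 to 7.53. Pcna, the sliding clamp of DNA polymerase, was the steadiest member, at 11.90 ± 0.19 and 11.46 to 12.28. Foxm1, the transcription factor of the G2 and M genes, followed with 6.81 ± 0.199. Over the 42 genes the median SD between mice was 0.333, beside 0.277 over all tested probesets.

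**Figure D1:**
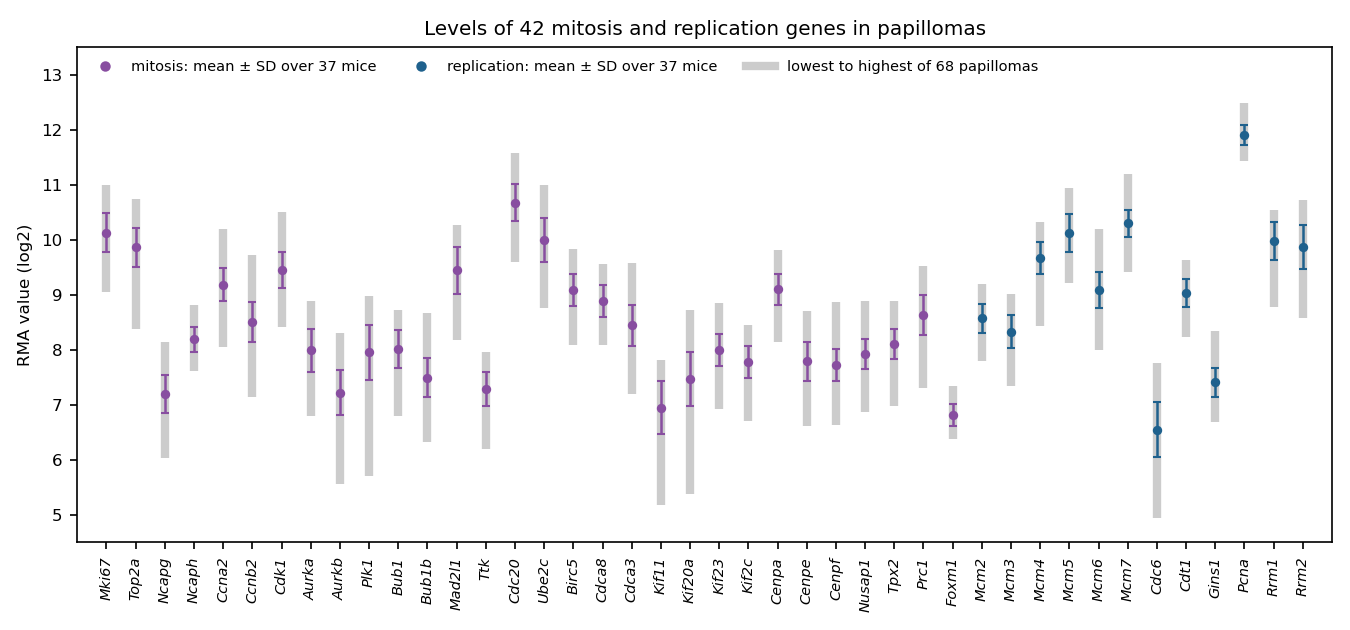
RMA values (log2, vertical axis) of the 42 tested genes (horizontal axis), as mean ± SD over 37 mice (points with bars) and as the range over 68 papillomas (gray). Plk1, Kif20a and Cdc6 show long gray ranges and Pcna and Foxm1 short ones; probesets differ in brightness, so levels of different genes are not comparable.

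One mouse lay below the rest. In the single papilloma of mouse 36, which carried the most papillomas (35 at 20 weeks), the mean of the 42 genes was 7.68, and the other 67 papillomas ran from 7.87 to 9.31. Mouse 36 was the lowest of the 37 mice for 29 of 42 genes. Its Plk1 was 5.71, its Top2a 8.37, its Rrm2 8.57 and its Mcm2 7.79, each below every other mouse. The exceptions included Pcna, at 11.75 close to the median of 11.86. Mouse 36 also had the lowest mean of the basal keratinocyte markers, 10.79. The other susceptible mice ran from 10.97 to 11.98, intermediate mice from 11.08 to 12.12 and resistant mice from 11.68 to 11.89. The striated muscle markers of mouse 36 averaged 9.25, the highest of the susceptible mice, where the median mouse was at 6.03. Mouse 31, also susceptible, was close in both lists, at 10.97 and 9.23. The mean of the 42 genes was 8.69 in mouse 31. Mouse 36 was also labeled with 388 days alive, the most of the 31 mice with a value (179 to 388). The part of these in the low values was not tested. At the other end, mouse 14 was the highest mouse for 16 genes and mouse 19, with 1 papilloma, for 9.

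The members rose and fell together from mouse to mouse. Over the 861 pairs of the 42 genes the median correlation across 37 mice was r = 0.597, and 98.7% were above 0, beside a median of 0.003 and 50.4% for all pairs of the 12605 tested genes. Within the 30 mitosis genes the median was 0.646, within the 12 replication genes 0.537, and between both groups 0.539. The 6 helicase genes had a median of 0.657 among themselves. The closest pair was Top2a with Prc1, which bundles the microtubules of the central spindle, at r = 0.928. Aurkb with Kif20a followed at 0.922, and Plk1 with Kif20a at 0.921. Aurkb is the kinase of the chromosomal passenger complex, and Kif20a a kinesin of cell division. These r share the same libraries and are descriptions. Without mouse 36 the median over the 861 pairs was 0.515, with 0.612 for mitosis, 0.428 for replication and 0.427 between them.

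A few members had lower correlations across mice. Gins1, a subunit of the complex that moves with the helicase, had a median r of 0.207 with the other members, Foxm1 of 0.303 and Cdt1 of 0.413. Without mouse 36 these were 0.314, 0.144 and 0.221. Over the 31 differences between papillomas of the same mouse Gins1 and Cdt1 stood at 0.682, near the median of 0.699 over all pairs of members, and Foxm1 at 0.117. The lowest of all pairs was Foxm1 with Gins1, at -0.179. Foxm1 depended on the probeset. The probeset used (mean 6.81) correlated with a second one (mean 6.55) at r = 0.390 and with another (mean 6.53) at r = 0.836, and the second correlated with Mki67 at r = 0.667, the other at 0.443 and the one used at 0.320. The second probeset of Top2a (mean 7.18) correlated with the one used at r = 0.257 and with Mki67 at 0.294, against 0.704 for the one used, and that of Cenpa (mean 5.57) correlated with the one used at r = 0.359. The probeset of Mcm3 of lowest mean (5.44) also went its own way, at r = 0.0924 with the one used, which lay at 8.34.

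**Figure D2:**
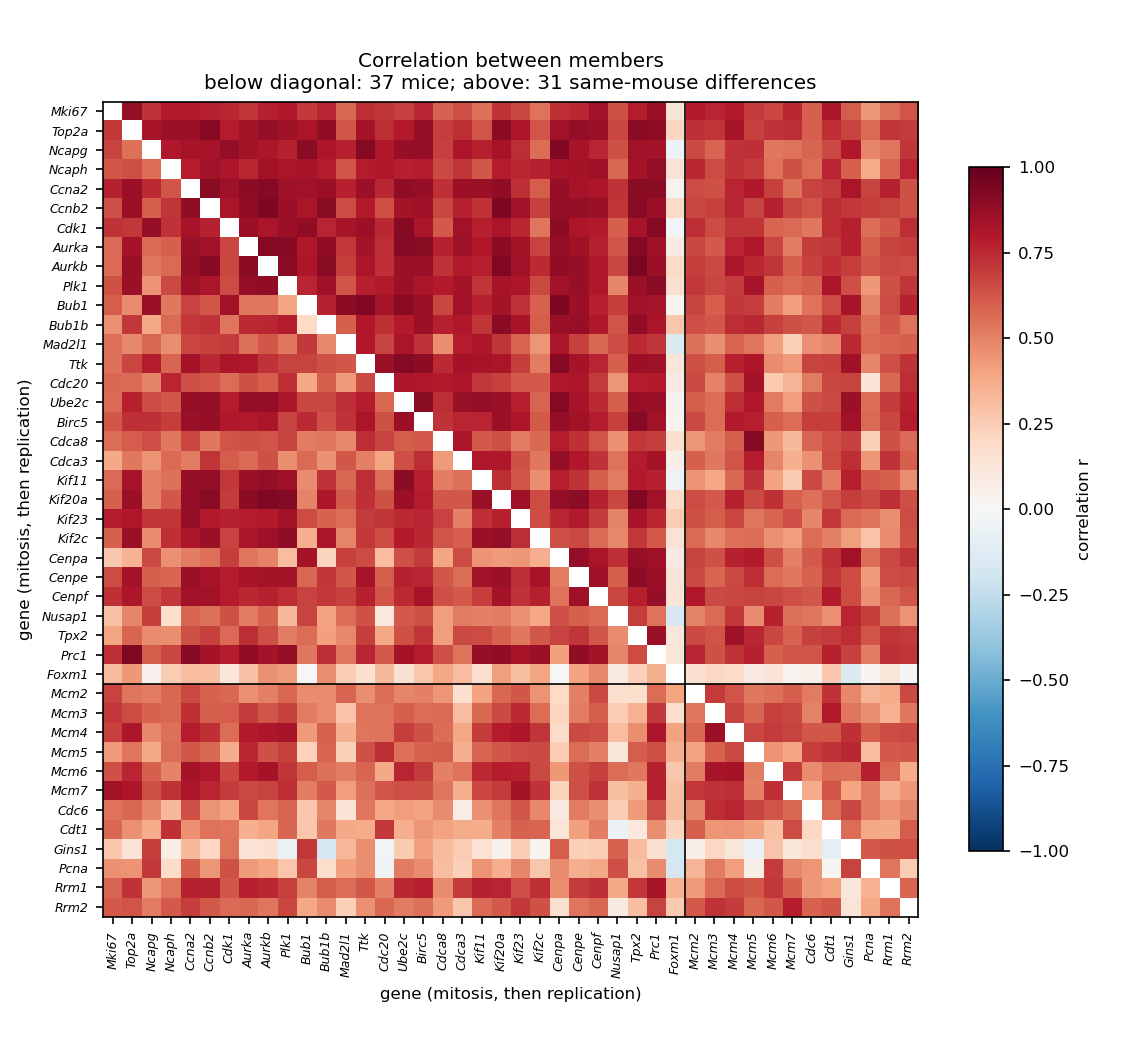
Correlation r (color, from -1 to 1) between members, over 37 mice below the diagonal and over 31 differences between papillomas of the same mouse above it, with lines between mitosis and replication genes. Most cells are red; the row and column of Foxm1 and, below the diagonal, of Gins1 are pale.

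To ask which genes follow the proliferation marker, each probeset was fitted on the level of Mki67 in the same mouse. All 41 other members had a positive slope, and 32 of 41 were called at an adjusted p under 0.05, where 1.2% of the 21580 probesets were called positive (limma, Benjamini-Hochberg over all tested probesets). The 32 were 23 of 29 mitosis genes and 9 of 12 replication genes. The median slope was 0.58 log2 units per log2 unit of Mki67. Plk1 had the largest, 0.88 (SE 0.18, adjusted p = 0.0040), and Mcm7 the smallest adjusted p, 6.1e-06, with a slope of 0.58 (SE 0.069). Ccna2 (cyclin A2), which acts in both S phase and mitosis, had a slope of 0.66 (SE 0.094, adjusted p = 9.6e-05). Cenpa (the centromere histone), Cdca3, Nusap1, Tpx2, Bub1b, Foxm1, Mcm5, Gins1 and Pcna had positive slopes that did not pass. This count rested on mouse 36. Without mouse 19, 26 of 41 passed, and without mouse 36, 8 of 41 passed, where 0.167% of probesets were called positive. All 41 slopes were positive without mouse 36, with a median of 0.44, and 36 of 41 were below an unadjusted p of 0.05, where 4.91% of probesets were. The 8 were Ncapg, Ccna2, Cdk1, Bub1, Kif23, Cenpf, Prc1 and Mcm7. Without mouse 36 Ncapg had the largest slope, 0.72, and Plk1 had 0.48 (SE 0.15, adjusted p = 0.28). With Mcm2 as the marker in place of Mki67, 17 of 41 passed, and with Top2a 38 of 41. The share of all probesets is not given for these markers or without mouse 19, so these counts stand without a background.

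In single relations, Mki67 correlated across 37 mice with Top2a at r = 0.704 (rho = 0.533), with Cdk1 at r = 0.720 (rho = 0.563), with Mcm2 at r = 0.673 (rho = 0.595) and with Pcna at r = 0.457 (rho = 0.496). Adjusted over the 5 relations computed, the permutation p was 2.5e-05, 2.5e-05, 3.3e-05 and 0.0059 for r, and 0.0011, 0.0011, 0.00090 and 0.0023 for rho. For Top2a and Cdk1 the unadjusted p of r, 1e-05, is the smallest that 100000 permutations can give. Foxm1, at r = 0.320 and rho = 0.229, did not pass (permutation p = 0.053 and 0.17, adjusted the same). Left without mice 36 and 19, the farthest from the median of Mki67, r was 0.527 for Top2a, 0.660 for Cdk1, 0.570 for Mcm2, 0.441 for Pcna and 0.149 for Foxm1. Within the start cohorts of 6, 8 and 9 mice, r with Top2a was 0.707, 0.981 and 0.606, and r with Cdk1 was 0.582, 0.920 and 0.440. In the same cohorts r with Mcm2 was 0.735, 0.871 and 0.148, r with Pcna -0.176, 0.673 and 0.617, and r with Foxm1 0.474, 0.594 and -0.0852. The cohort of 8 held mouse 36, and in its other 7 mice r was 0.960 with Top2a, 0.884 with Cdk1, 0.580 with Mcm2, 0.683 with Pcna and -0.0229 with Foxm1. Other cohorts had 2 to 5 mice, too few for a value.

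The papillomas of the same mouse share its inherited genome and treatment schedule. In 7 of 31 mice at least 40 of the 42 genes differed between papillomas in the same direction. In the median mouse 34 of 42 did, where over all tested probesets the more frequent direction held 52.7% in the median mouse and 60.1% at most. The mean difference over the 42 genes was 0.145 log2 units in the median mouse and up to 0.785. It was above 0.5 in 5 mice (1, 7, 9, 12 and 25). In mice 12 and 13, 1 of the 2 arrays went against the sex label. Whether the 2 papillomas of either came from the same mouse was not tested. In mouse 9 papilloma 2 was higher in 41 of 42 genes, with a mean over the genes of 9.22 against 8.43 and Cdk1 at 10.50 against 8.82. In mouse 25 papilloma 1 was higher in 42 of 42, with Top2a at 10.30 against 9.53 and Plk1 at 8.79 against 7.75. In mouse 7 all 42 were higher in papilloma 2, and Mki67 was 10.20 against 9.09. In mouse 1 papilloma 1 was higher in 41 of 42, with Mki67 at 10.31 against 9.71. The 1 gene that went the other way was Foxm1 in each of mice 1, 9 and 12. It was 6.90 against 7.02 in mouse 1 and 7.17 against 7.06 in mouse 9. In mouse 12 it hardly differed, at 6.793 against 6.790. Markers of other cells and RNA quality moved in some of the same pairs. In mouse 9 papilloma 1 against papilloma 2 had an Actb ratio of 1.13 against 0.564, differentiation markers at 12.65 against 11.57, hair follicle markers at 9.38 against 6.18, sebaceous markers at 9.80 against 7.18 and fibroblast markers at 11.77 against 10.78. In mouse 1 the hair follicle markers were 8.04 against 5.23 and the leukocyte markers 7.52 against 8.31. In mouse 25 the fibroblast markers were 9.79 against 11.33 and the leukocyte markers 6.35 against 7.23, and in mouse 7 the hair follicle markers were 8.21 against 6.39. In mouse 37 papilloma 2 was higher in 41 of 42 genes. Its papilloma 1 against papilloma 2 had an Actb ratio of -0.27 against 1.71 and striated muscle markers at 9.22 against 4.83. The part of these in the members' differences was not tested. Other mice had papillomas that hardly differed. In mouse 32 the genes split 21 to 21 and the means were 9.00 and 8.99, although the differentiation markers of its papillomas were 5.56 and 11.03. Mitosis and replication genes moved the same way, on their means, in 25 of 31 mice.

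**Figure D3:**
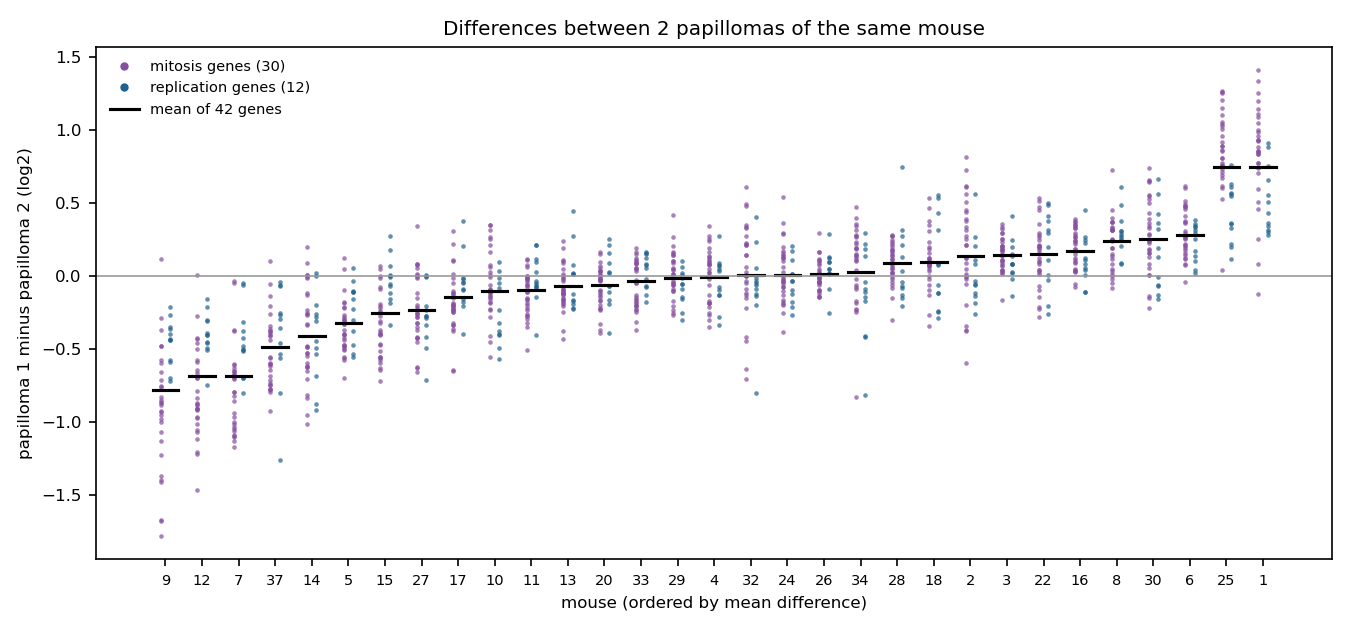
Papilloma 1 minus papilloma 2 (log2, vertical axis) for each member in each of 31 mice (horizontal axis, ordered by mean), mitosis genes purple, replication genes blue, mean of 42 genes as a bar. In mice 9, 12, 7, 25 and 1 nearly all points lie on one side of 0, while in mice 32, 24 and 26 they lie on both.

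Fitted on the difference in Mki67 between the 2 papillomas of a mouse, 38 of 41 members were called, all positive, where 2.13% of the 21580 probesets were called positive (limma, Benjamini-Hochberg over all tested probesets). The median slope was 0.67. Plk1 had the largest slope, 1.00 (SE 0.136), followed by Aurkb with 0.89 (SE 0.13) and Cdk1 with 0.88 (SE 0.14). Ncapg, a subunit of condensin, had 0.87 (SE 0.146), and Ube2c, the ubiquitin-conjugating enzyme of the anaphase-promoting complex, 0.87 (SE 0.17). Mitosis genes had a median slope of 0.75 and replication genes of 0.48, a difference that was not tested. The members that did not pass were the kinesin gene Kif2c (slope 0.34, adjusted p = 0.055), Pcna (0.20, adjusted p = 0.21) and Foxm1 (0.064, adjusted p = 0.81). With the mean of all its tested probesets Foxm1 passed across mice, at 0.32 (SE 0.073, adjusted p = 0.015), and had 0.25 (SE 0.086, adjusted p = 0.10) within mice. Left without any 1 mouse, 34 to 39 members passed. Across the differences, r with Mki67 was 0.876 for Top2a (adjusted permutation p = 0.00020, over 5 relations), and the sign of both differences matched in 25 of 31 mice. For Mcm2 r was 0.790, for Cdk1 0.753, for Pcna 0.435 and for Foxm1 0.132 (adjusted permutation p = 0.00135, 0.00030, 0.033 and 0.50).

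**Figure D4:**
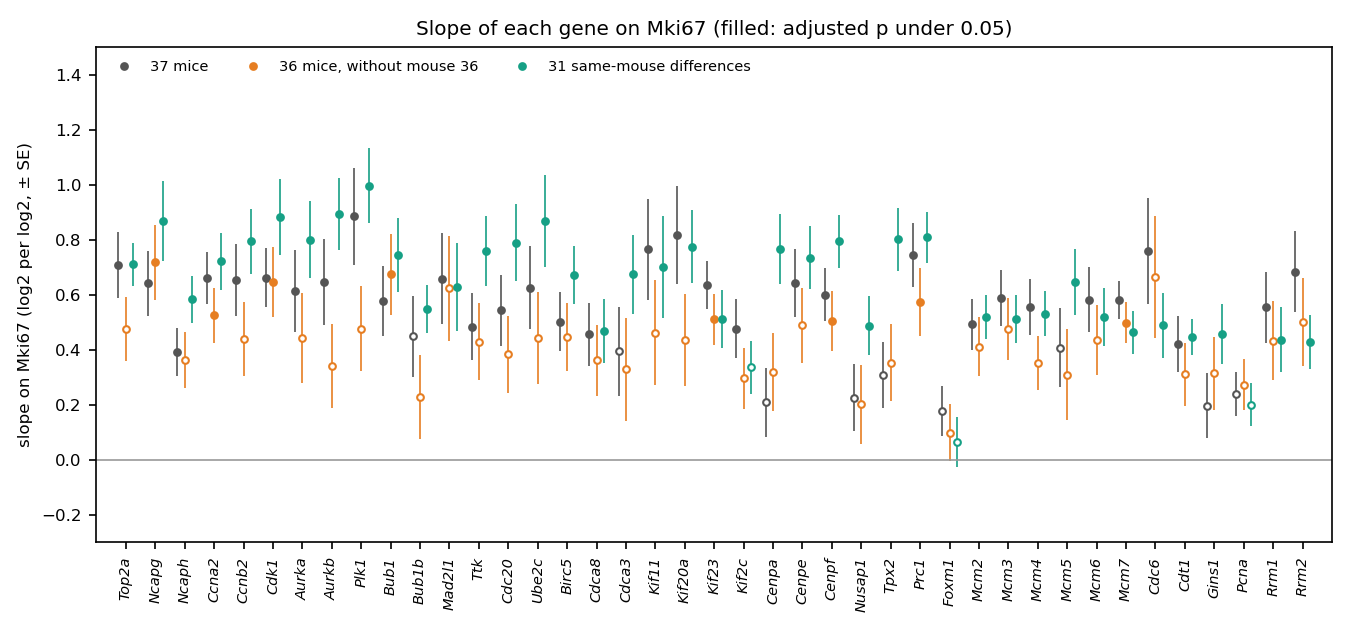
Slope of each member on Mki67 (log2 per log2, vertical axis, with SE) over 37 mice (gray), over 36 mice without mouse 36 (orange) and over 31 same-mouse differences (green); filled points passed an adjusted p of 0.05. The green points are filled except for Kif2c, Foxm1 and Pcna, and most orange points are open.

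Of 38 tested replication genes outside the list 10 were called positive on Mki67 across mice and 21 within mice, with Uhrf1 (maintenance of DNA methylation) at 0.72 (SE 0.11) across mice and E2f8 and E2f7, repressors of the E2F family, at 0.93 (SE 0.18) and 0.84 (SE 0.16) within mice. Of 50 other mitosis genes 21 and 46 were called, among them the condensin gene Ncapd2 at 0.76 (SE 0.14) across mice and the kinesin gene Kif22 at 0.84 (SE 0.081) within mice. No marker gene of keratinocytes, hair follicle, sebaceous gland, leukocytes, fibroblasts, endothelium or muscle was called in either fit. The mean of the leukocyte markers (10 of 12 genes tested, 6 above the median in all arrays) correlated with the mean of the members at r = -0.238 over 37 mice and at r = -0.414 over the 31 differences. Over mice its range was 6.91 to 8.47 in susceptible, 6.61 to 8.19 in intermediate and 6.72 to 7.95 in resistant mice. For the basal keratinocyte markers r was 0.139 over 37 mice, turned to -0.328 without mouse 36 and was -0.292 over the differences. The Actb ratio correlated with the members at r = -0.331 over mice and -0.0420 over differences. The part of these in the members' values was not tested.

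The genes outside the list whose levels followed the members most closely over 37 mice were Asf1b, a histone chaperone, with r = 0.916 to the mean of the members' standardized values, Racgap1 with 0.901, Spag5 with 0.894, Anln with 0.884 and Nuf2 with 0.877. Kif22, Ndc1, Melk, Nup107 and Fanci completed the 10, down to 0.845. The lowest of the 12563 genes were Atp6v1g1, a subunit of the vacuolar proton pump, with r = -0.712, Tmtc2 with -0.667, Defb1, an antimicrobial peptide of epithelia, with -0.656, Abhd14b with -0.647 and Pcbd2 with -0.637. Without mouse 36 the 10 genes ran from 0.747 (Fanci) to 0.900 (Spag5), and Atp6v1g1 stood at -0.587, Abhd14b at -0.575, Defb1 at -0.555, Tmtc2 at -0.477 and Pcbd2 at -0.360. Over the 31 differences Pcbd2 stood at -0.102. These are descriptions over 37 mice.

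How far both papillomas of a mouse were alike was given by the share of variance between mice (intraclass correlation). It passed the F test for 20 of 42 members, where 71% of the 21581 probesets passed. The median share was 0.316, beside 0.435 over all tested probesets. Replication genes passed in 10 of 12, with a median of 0.449, and mitosis genes in 10 of 30, with a median of 0.260, and this difference was not tested. Cdc6 had the highest share, 0.752 (adjusted p = 6.5e-06), then Rrm2 with 0.683 (adjusted p = 7.6e-05), Cdt1 with 0.538, Pcna with 0.513, Bub1b with 0.509 and Rrm1 with 0.501. The lowest were Cdc20, the activator of the anaphase-promoting complex, with 0.0052, and Plk1 with 0.057. All 3 tested genes of the cyclin and Cdk1 group and all 3 mitotic kinases missed the threshold. The median absolute difference between papillomas was 0.213 for mitosis genes, 0.183 for replication genes and 0.192 over all tested probesets. With the RNA quality ratios as covariates 11 of 42 members passed, where 54.1% of probesets did.

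Mouse 20 stood apart in the replication genes. All 6 helicase genes lay among the 4 lowest of 37 mice there. Mcm5 was 9.21 and 9.38 in its papillomas, against a median mouse of 10.19. Mcm3 was 7.47 and 7.58 against 8.38. Cdc6, at 5.04 and 4.95, was the lowest of all mice, where the median was 6.66. Rrm2 was the third lowest, at 8.79 and 9.18 against 9.88. The mitosis genes of the same tumors lay on both sides of their medians. Top2a was 9.98 and 9.83 against 9.89, Mad2l1, a protein of the spindle checkpoint, 10.03 and 10.02 against 9.52, and the kinesin gene Kif23 7.57 and 7.66 against 8.02. Mad2l1 ranked 35 from the lowest of 37 mice, Kif23 3 and Mki67 7. Both papillomas of mouse 20 had the smallest gap between the replication and the mitosis mean of all 68, 0.372 and 0.314, against a median of 0.869. In mouse 20 Pcna ranked 10 from the lowest of 37 mice, Rrm1 16, Cdt1 21 and Gins1 22. Without mouse 20, a choice made after seeing these values, 7 of 12 replication genes and 9 of 30 mitosis genes passed, where 67.2% of probesets did. Mcm3, Mcm4 and Mcm5 no longer passed, and Cdc6 and Rrm2 had shares of 0.646 and 0.63.

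The number of papillomas a mouse carried at 20 weeks was then set against these genes. That count leaves out some profiled papillomas, since 5 of the 6 resistant mice carried 0 or 1 then and gave 2. Mouse 32 had 0 at 20 and 24 weeks and its first papilloma at 28 weeks, after TPA had ended. No member passed an adjusted p of 0.05 in the fit on log2(number + 1), where 0.00463% of probesets did (1 of 21581; limma). The slope was negative in 41 of 42, beside 11200 of 21581 probesets, with a median of -0.069 log2 units per doubling of number + 1. The members correlate with each other, so counts over them do not hold 42 separate observations. At an unadjusted p under 0.05, 15 of 42 were lower in mice with more papillomas and 0 higher, where 5.88% of probesets were lower and 5.03% higher. Top2a had a slope of -0.12 (SE 0.043, adjusted p = 0.27), Plk1 of -0.17 (SE 0.058, adjusted p = 0.28) and Ncaph, a condensin subunit, of -0.0735 (SE 0.028, adjusted p = 0.32). Without mouse 36 none of the 42 was below an unadjusted p of 0.05, where 2.78% of probesets were lower and 3.81% higher, and the median slope was -0.03 with 33 of 42 negative. With the RNA quality ratios as covariates 1 of 42 was below it, and 34 were negative (share of all probesets not given). In the same fit slopes were positive for 7 of 7 tested differentiation markers (6 at an unadjusted p under 0.05, median 0.31) and negative for 6 of 6 basal markers (2 at that p, median -0.065), none past the adjusted threshold. Their part in the members' slopes was not tested. Within start cohorts, 38 of 42 slopes were negative among 6 mice, all 42 among 8 mice and 34 among 9 mice. The 8 mice held mouse 36, and without it 19 of 42 were positive. The other cohorts had too few mice.

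**Figure D5:**
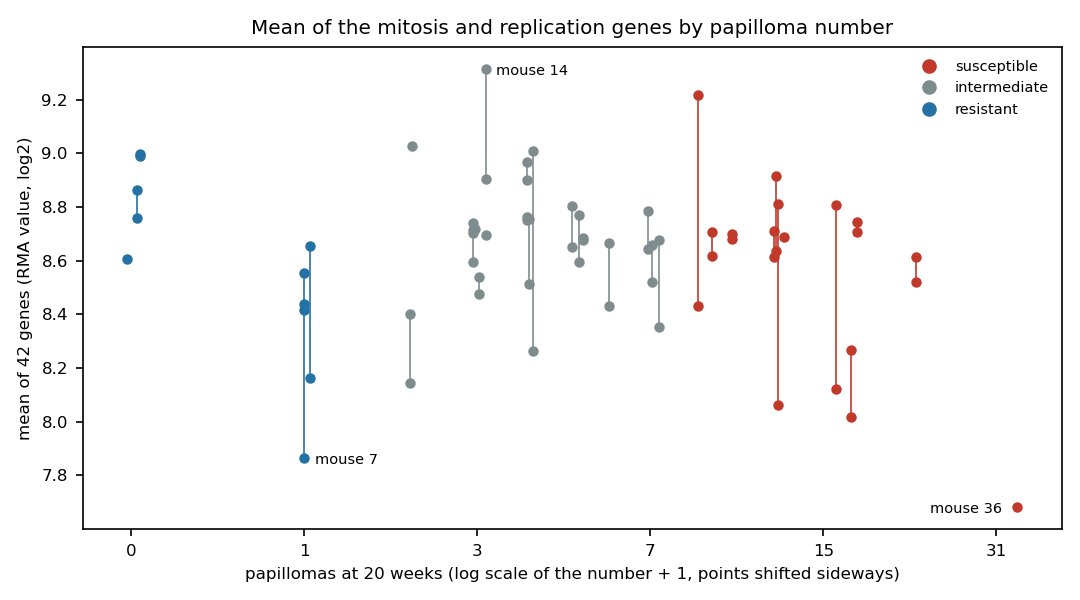
Mean RMA value of the 42 genes (log2, vertical axis) in each papilloma against the papillomas its mouse carried at 20 weeks (log scale of the number + 1), colored by class, lines joining papillomas of the same mouse. Mouse 36, with 35 papillomas, lies lowest at 7.68, and the highest papilloma, of mouse 14, lies at 9.31.

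The ranges of susceptible and resistant mice overlapped in Mki67, Top2a and Rrm2. Mki67 ran from 9.07 to 10.57 in 12 susceptible mice (median 10.08) and from 9.63 to 10.68 in 6 resistant mice (median 10.34). Top2a ran from 8.37 to 10.14 (median 9.75) and from 9.37 to 10.43 (median 9.78). Rrm2, with the largest difference among the 42, ran from 8.57 to 10.29 (median 9.83) in susceptible and from 9.79 to 10.44 (median 9.98) in resistant mice, a difference of -0.32 (SE 0.20, adjusted p = 0.65). None of 42 members passed (10 of 21581 probesets, 0.0463%, did), and none was below an unadjusted p of 0.05, where 5.57% were higher and 3.99% lower in susceptible mice. The median difference was -0.054. It turned to 0.027 without mouse 36, to 0.038 without mouse 32 and to 0.21 with the RNA quality ratios as covariates. In that last fit 5 of 42 were higher in susceptible mice at an unadjusted p under 0.05, and none passed the adjusted threshold. The share of all probesets at that p is not given for this fit. The 5 are therefore not read as a result about the members. The Actb ratio ran from 0.482 to 1.29 in susceptible and from 0.176 to 0.913 in resistant mice. The differentiated keratinocyte markers had a median difference of 1.49 (7 of 7 higher in susceptible mice at an unadjusted p under 0.05, smallest adjusted p = 0.055), and ran from 11.31 to 12.60 in susceptible and from 8.30 to 11.32 in resistant mice. Their part in the members' values was not tested. The 19 intermediate mice had Mki67 from 9.46 to 10.89 (median 10.12).

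The time to the first papilloma, 8 to 28 weeks in 35 mice, gave no call either. Mice with more papillomas had shorter latency (r = -0.613, rho = -0.581), so both measures hold much of the same information. No member passed and 0% of probesets did. The slope was positive in 37 of 42 members, which correlate with each other, beside 10067 of 21581 probesets. The median over members was 0.010 log2 units per week. At an unadjusted p under 0.05 there was 1 of 42 higher with longer latency (Ncaph, 0.02 per week, SE 0.0092, adjusted p = 0.559) and none lower, where 4.02% of probesets were higher and 4.67% lower. Mki67 had a slope of 0.0075 (SE 0.015) per week. Without mouse 32, which had the longest latency of 28 weeks, the median slope was 0.0005, with 21 of 42 positive, and without mouse 36 it was 0.0053, with 32 of 42 positive. Within start cohorts the slope was positive in 41 of 42 genes among the 8 mice that held mouse 32 and in 23 of 42 among another 8. Another cohort had the same latency of 10 weeks in all 6 mice.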

How the data were processed

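The authors deposited 1 table of log2 values made by RMA, with 45101 probesets and 68 arrays. RMA corrects background, normalizes arrays by quantiles, which would remove a shift common to all genes, and summarizes probes; its version is not given in the sources used here. All arrays were used, and no value was missing. Symbols came from the array annotation, in which 34945 probesets carry 1 symbol. Of these, 21581 exceeded the median of their array in 11 or more arrays and were tested.

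The replicate was the mouse, so log2 values of papillomas from the same mouse were averaged. The 6 mice with 1 papilloma entered with that single value and the same weight. Slopes on log2(papillomas at 20 weeks + 1), weeks to first papilloma and Mki67, and the difference between classes, were fitted with limma 3.58.1 (lmFit, eBayes with trend) in R 4.3.3. Papilloma 1 minus papilloma 2 was fitted through the origin. The intraclass correlation was tested by F. Their p-values were adjusted by Benjamini-Hochberg over all tested probesets, with a threshold of 0.05. Relations of Mki67 with 5 single genes had 100000 permutations, of mice or of the papilloma order within mice, and were adjusted over the 5 (Ccnb1, planned too, has no probeset). The methods of the study name SAM; mouse means were used here since papillomas of the same mouse are not independent. Papillomas were numbered 1 and 2 by the labels, and the labels tie the number to no batch. The fits were checked on simulated data with known slopes. Other steps ran in Python 3.11.15 (scipy 1.17.1 for correlations; numpy 2.4.6; tables in pandas 2.3.3; plots in matplotlib 3.10.9).

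The members and lists were chosen with earlier results of these data known. Every member may be named; outside them, the 10 genes of highest and 5 of lowest correlation with the members, and up to 4 of largest slope from the other lists. Alternatives covered the filter, scaling, probeset choice, mouse means, block, covariates and single mice. Leaving out mice 32 and 37, mouse 20, or mouse 36 from correlations and from a start cohort, was added after seeing the data. The number of mice limits the precision.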

Additional observations from a re-analysis of the deposited data

Results flagged for a closer look

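Among the 6 resistant mice, the only class small enough for a test of single outlying samples, 1 of 42 members had a sample far from the others. Rrm1, the large subunit of ribonucleotide reductase, was 10.51 in mouse 10, and the nearest of the other resistant mice was 9.78, a gap of 0.660 of the range. Chance flags about 1 in 20 such groups.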

How the results depend on the processing

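No member passed for papilloma number, latency or class under any alternative or without any 1 mouse (0 to 0 in each), and the fit with papilloma 1 or 2 as a replicate block and mouse as a random block also called 0. For Mki67 across mice the 32 members fell to 17 with Mcm2 as the marker, and to 8 without mouse 36 (26 without mouse 19, and up to 33 without another); for Mki67 within pairs leaving out 1 mouse gave 34 to 39. For the share of variance between mice the 20 members fell to 11 with the RNA quality ratios as covariates. The cause of these changes was not tested. Where the share of all probesets is given above, it fell too. The other alternatives for these fits stayed within 1.5 times the count reported, and in both Mki67 fits all members had a positive slope under each. With papilloma 1 of each mouse alone the median class difference was 0.036, of opposite sign to the -0.054 reported, as it also was without mouse 10, 32 or 36 and with the RNA quality ratios. Signal over background limits Tyms and the low values of Cdc6 and Kif11, and 6 resistant mice limit what the class comparison can show.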
